A study of Gallus gallus with 6 samples.

Results

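DNA replication and S phase genes are the set of 50 genes, given by symbol, whose products license replication origins, unwind and copy DNA, supply nucleotides, package the new DNA or start S phase. Of the 50, 44 had at least 1 probe set whose only gene symbol in the platform annotation was that of the gene. CDC6, MCM4, MCM7, GINS2, POLD1 and CDK2 had no such probe set and were not analysed here. Where a gene had several, the probe set with the highest mean over the 6 arrays was used. A gene was tested when that probe set was over a log2 value of 4 on at least 3 arrays, which kept 43 of the 44 and 7768 of the 13051 genes with a probe set. PRIM2, a primase subunit, was the gene left out, with a mean log2 value of 2.91 over the arrays. All 43 tested genes were over 4 on all 6 arrays, so none passed through 1 group alone. The lowest value on any array was 4.05, in LIG1.

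The samples were chicken monoblasts, immature cells of the monocyte line, from Brown Leghorn birds. In 3 of them the cells had been transformed by wild type v-Myb, the oncoprotein of avian myeloblastosis virus, and in the other 3 by a mutated v-Myb named deltaP. All were primary cells that carried a v-Myb and had been moved to culture 16 days after infection, into a medium with fetal bovine and chicken serum, so the series has no untransformed group. The labels number the biological replicates 1 to 3 in each group, and what cultures of 1 number have in common is not given in them. The study, by its title, concerned INK4A, a brake on entry into S phase, and the leucine zipper region of v-Myb.

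DNA is copied once per cell cycle. In G1 the origin recognition complex, with CDC6 and CDT1, loads the MCM helicase on origins, and geminin blocks a second loading. At the start of S phase the kinases CDC7 and CDK2 with cyclin E turn the loaded MCM ring into an active helicase with CDC45 and GINS, and primase, polymerases, the PCNA clamp and its loader then copy the strands. In mammals many of these genes are transcribed under E2F factors, which RB proteins hold back and which INK4 inhibitors restrain by acting on CDK4 and CDK6. The mRNA of many of them peaks near the start of S phase, and in a bulk sample fewer cells in S phase and less mRNA per cell cannot be told apart.

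The deposited log2 values have a pair structure that governs how they are read. For each probe set the sum of the wild type and deltaP values of 1 replicate number was equal over the 3 numbers to within 0.001 log2 units. The values therefore hold 3 independent differences, deltaP minus wild type within pairs 1, 2 and 3, and the deposited value of an array is not its measured level. A gene that was higher in deltaP in 3 of 3 pairs has, by the same arithmetic, no overlap between the groups. Between 41.8% and 42% of probe sets were over 4 on each array, and the number of arrays limits the precision. All 11 monocyte and macrophage markers with a probe set were over 4, led by CEBPB, CTSS and SPI1 (mean log2 values of 14.29, 13.69 and 13.56 in wild type cells), and CD14 had no probe set. The summed level of that list ran from 16.13 to 16.26 in wild type and from 15.99 to 16.12 in deltaP cells on the log2 scale. The granulocyte markers CATH1 and AvBD1 had higher values than CEBPB (15.36 and 14.63 in wild type cells).

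The replication genes were bright. Their mean log2 value over all arrays ran from 4.31 (LIG1) to 13.31 (RRM2) with a median of 9.39, against a median of 8.73 over all tested genes, and 27 of 43 lay above that median. A brighter probe set need not mean more transcript, since probes differ in how well they bind. Of the 43 probe sets, 25 were of the kind (s_at) that can bind several transcripts and 5 of the kind (a_at) that can bind several transcripts of 1 gene.

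Replication genes were on average slightly higher in deltaP cells, and pair 3 had the largest part in that. Over the 3 pairs 34 of the 43 tested genes had a mean difference above 0 and 9 below, with a median of 0.17 log2 units, while 51.3% of all tested genes were above 0 and their median was 0.01. By pair, the replication genes had medians of 0.10 (pair 1), -0.11 (pair 2) and 0.50 (pair 3). Over all tested genes these medians were 0.03, 0.02 and -0.04. Without pair 3 the median was 0.02, with 23 genes above 0 and 20 below. It was 0.29 without pair 2 (38 above and 5 below) and 0.21 without pair 1 (35 above and 8 below). The value without pair 3 thus also depends on pair 2, which went the other way.

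The number of genes on each side shows the same split between pairs. In pair 1, 29 of 43 were higher in deltaP, in pair 2 only 15, and in pair 3 as many as 38, where 54.2%, 53.9% and 45.8% of all tested genes were higher. A difference over 0.5 log2 units was found for 2 genes in pair 1 (ORC5 and POLA2), for 0 in pair 2 and for 20 in pair 3. In pairs 1, 2 and 3, 9.59%, 7.04% and 11.8% of all tested genes were over 0.5. Below -0.5 were 2 genes in pair 1 (POLD3 and LIG1), 4 in pair 2 (MCM3, MCM10, RRM2 and CDC7) and 1 in pair 3 (CCNE1), against 9.38%, 6.31% and 18.8% of all tested genes. Each pair holds 1 array of each group, so no test was made within a pair.

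**Figure D1:**
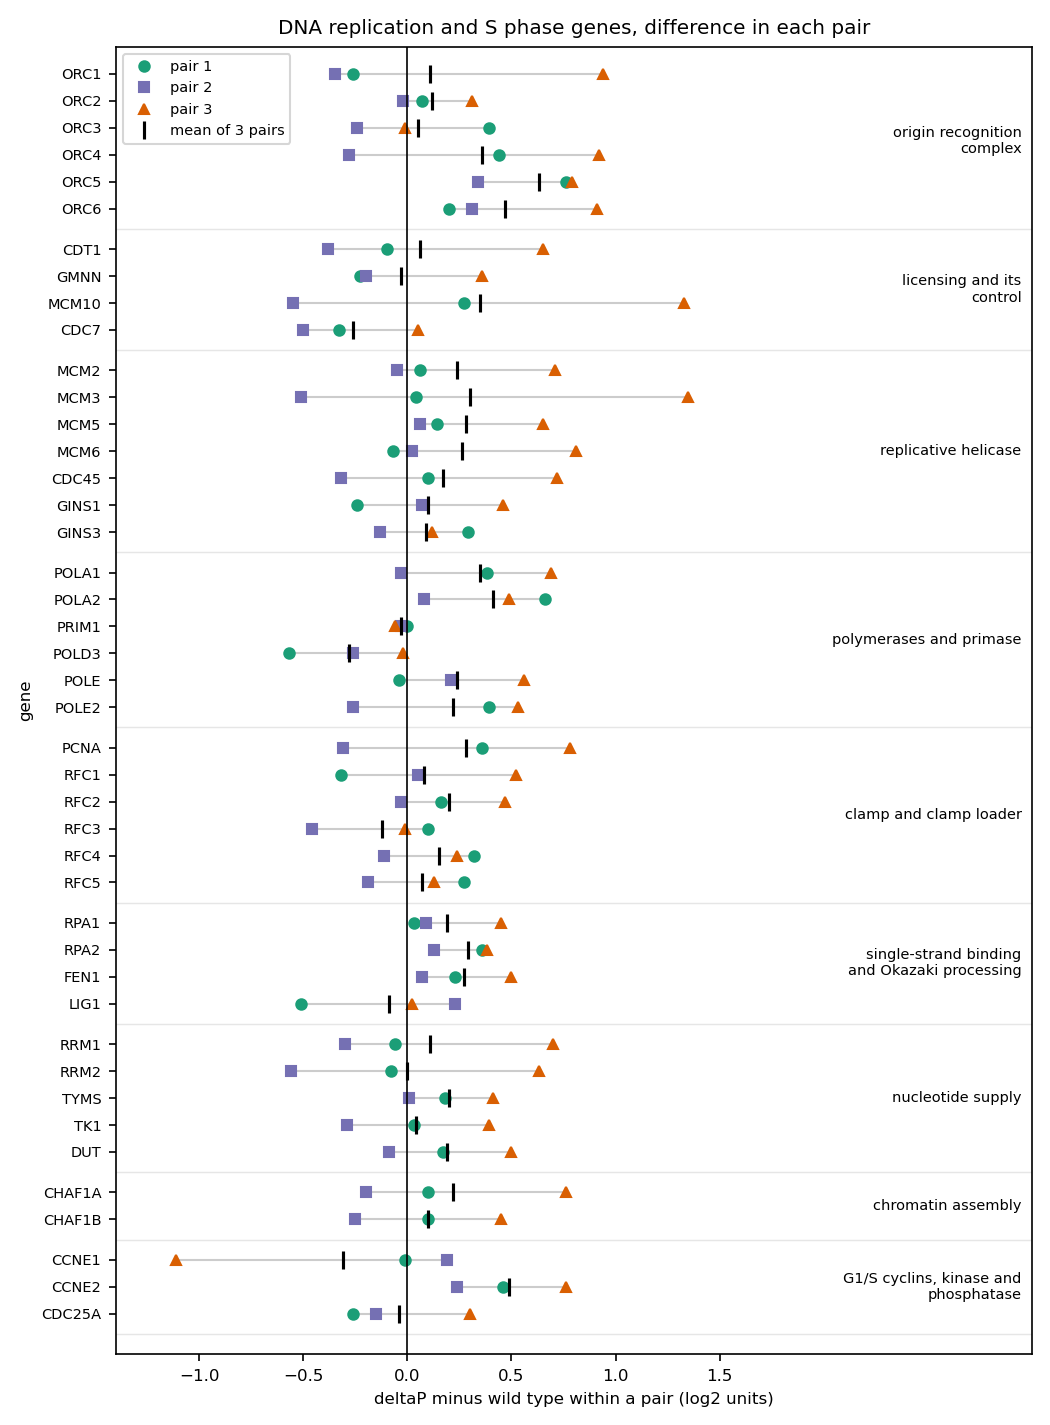
Difference between deltaP and wild type arrays in each same-numbered pair (x axis, log2 units) for the 43 tested genes, grouped by role (y axis). Circles, squares and triangles are pairs 1, 2 and 3 and the black bar is their mean. The pair 3 triangle is the highest of the 3 values in 34 genes and the pair 2 square the lowest in 31.

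The order of the pairs was shared by most of the genes. The difference in pair 3 was the highest of the 3 in 34 of 43 genes, against 33.2% of all tested genes. In 17 genes pairs 1 and 3 were higher in deltaP and pair 2 lower, a pattern of 11.6% of all tested genes. In 7 genes, ORC1, CDT1, GMNN, CDC7, RRM1, RRM2 and CDC25A, deltaP was lower in pairs 1 and 2 and higher in pair 3. That was by the brightest probe set of each gene, against 9.95% of all tested genes.

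The array's control RNAs also differed in pair 3. Poly-A control RNAs, a spike put in ahead of the labelling step, had a median difference of 0.71 log2 units in pair 3 (36 probe sets over 4 on average), against -0.10 in pair 1 and -0.07 in pair 2. Hybridization controls differed by 0.50 (27 probe sets), against 0.04 and -0.18. Neither shift was smaller than the median of the replication genes in that pair. The 3-prime minus 5-prime probe set values, a sign of RNA integrity, differed between the groups in pairs 1, 2 and 3 by -0.02, -0.20 and -0.23 for actin, by 0.07, 0.01 and 0.16 for GAPDH and by -0.02, -0.03 and 0.09 for EF1A. The actin value was thus about the same in pairs 2 and 3, while those of GAPDH and EF1A were highest in pair 3. Centring each array on its median gave the replication genes medians of 0.07, -0.13 and 0.56 in pairs 1, 2 and 3. The part of the control shifts in the result was not tested.

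Cell type markers went both ways in pair 3. Of 11 monocyte and macrophage markers 9 were lower in pair 3, among them IRF8 (-1.04) and CSF1R (-0.77), and their median went from -0.02 in pair 1 and 0.01 in pair 2 to -0.19 in pair 3. The haemoglobin genes HBA1 and HBAD differed by -2.94 and -2.65 in pair 3 and by 1.76 and 2.91 in pair 1. The T cell gene CD3E differed by -2.19 in pair 3 and 2.52 in pair 2, and the thrombocyte tubulin TUBB1 by -1.05 in pair 3. Other markers were higher in that pair, among them the erythroid factor TAL1 (0.36) and 3 of the 4 tested granulocyte genes, SERPINB10B (2.50), LECT2 (0.27) and AvBD1 (0.08). CATH1, the other granulocyte gene, differed by -0.27. SERPINB10B was higher in pairs 1 and 2 as well (1.94 and 2.41). In pair 2 LECT2, CATH1 and AvBD1 were lower in deltaP, by -1.39, -1.36 and -1.21. The 4 granulocyte genes had medians of 0.86, -1.29 and 0.18 in pairs 1, 2 and 3.

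Over the whole marker lists, 3 of 4 erythroid, 1 of 3 thrombocyte, 1 of 7 lymphocyte and 1 of 7 fibroblast genes with a probe set were over 4, as were 4 of 5 granulocyte genes. The summed levels ran from 8.59 to 9.14 in wild type and 8.47 to 8.97 in deltaP cells for the erythroid list, and from 15.83 to 16.41 and 15.15 to 15.73 for the granulocyte list. They ran from 6.59 to 7.39 and 6.35 to 7.13 for the thrombocyte list, from 6.04 to 7.58 and 6.12 to 7.71 for the lymphocyte list, and from 5.95 to 6.03 and 5.89 to 5.98 for the fibroblast list. Since the pair sums are equal, these ranges hold no spread in level between replicate numbers, only that of the within-pair differences. In the erythroid list TAL1 was the brightest gene (8.10 in wild type cells), above HBA1 (6.24) and HBAD (5.71). No listed gene had a log2 value of 0, and the collagen gene COL1A1, the B cell gene CD79B and the kinase gene LCK stayed below the filter in both groups. The part of other cells in the pair 3 difference was not tested.

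**Figure D2:**
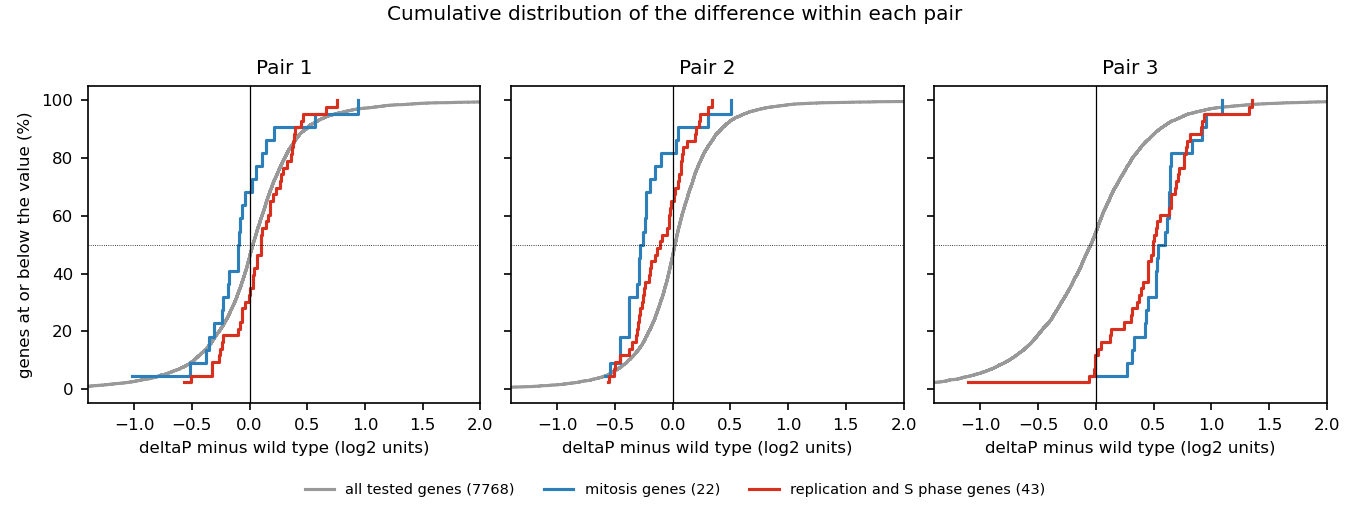
Cumulative share of genes (y axis, percent) at or below a given deltaP minus wild type difference (x axis, log2 units) in each pair, for the 43 replication genes (red), 22 mitosis genes (blue) and 7768 tested genes (grey). In pair 3 the red and blue curves lie to the right of the grey curve over most of their length, with medians of 0.50 and 0.57 against -0.04; in pair 2 both have medians to its left (-0.11 and -0.27 against 0.02). The curves stop at the plotted range, which leaves out the farthest genes of the grey curve.

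No replication gene passed the threshold over all genes. With limma and a block for the pair, 0 of the 43 had an adjusted p under 0.05, as did 0 of all 7768 tested genes (0%), and the adjusted p of the 43 ran from 0.375 to 0.998. At an unadjusted p under 0.05 there were 3 genes, ORC5, RPA2 and CCNE2, all higher in deltaP. Of all tested genes, 9.93% were under that level, made up of 3.89% higher and 6.04% lower in deltaP. Without the block, a fit that assumes 4 residual degrees of freedom although the pair structure leaves 2, limma called the same 3 genes (adjusted p of 0.0273 for ORC5, 0.0423 for RPA2 and 0.0493 for CCNE2), beside 8.24% of all tested genes. With 3 pairs the smallest p of an exact two-sided test of the signs is 0.25.

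The intervals give, gene by gene, a range for the mean difference in the deposited values. They rest on 3 pairs and on variances that limma draws towards a trend over all tested genes. The 95% confidence interval of the mean difference lay wholly between -1 and 1 log2 units for 39 of the 43 genes. That is within a 2-fold change either way, and the exceptions were ORC5, MCM3, MCM10 and CCNE1. Such intervals were not counted over all tested genes, so the count is not read as particular to this set. Over the 43 genes the median distance from the mean to either bound was 0.46 log2 units. The SD of the 3 pair differences had a median of 0.33, against 0.27 over all tested genes.

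**Figure D3:**
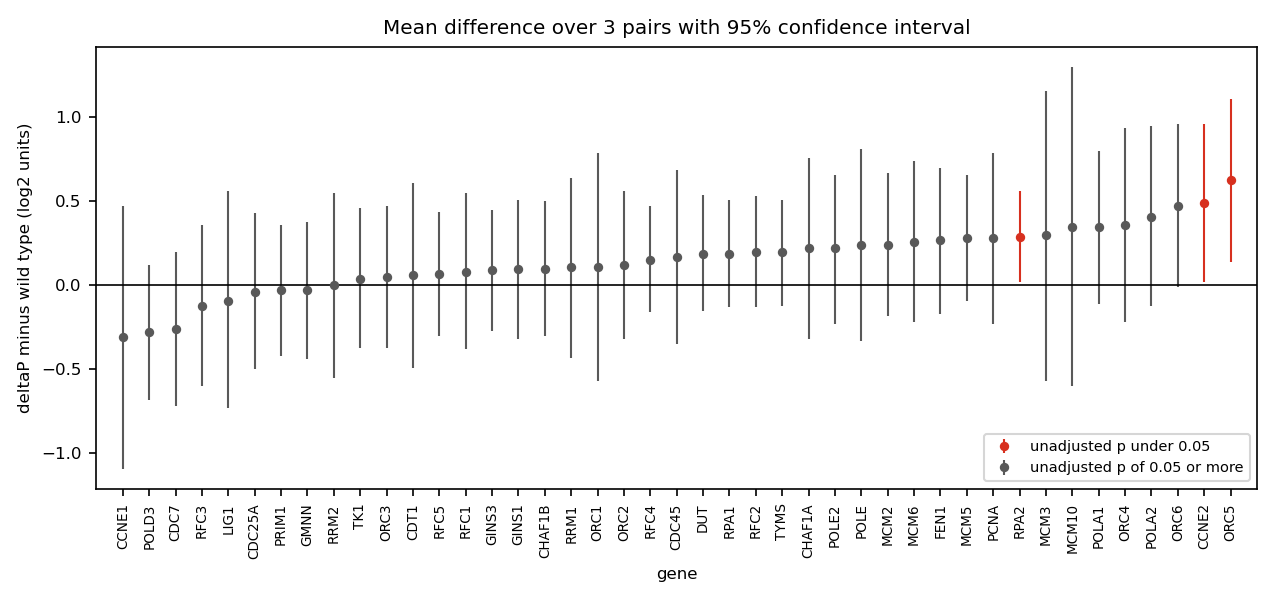
Mean deltaP minus wild type difference over 3 pairs (y axis, log2 units) with its 95% confidence interval from limma with the replicate block, for the 43 tested genes in ascending order (x axis). Red points have an unadjusted p under 0.05 (RPA2, CCNE2 and ORC5), and the other 40 intervals include 0.

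Higher values in deltaP in 3 of 3 pairs were found for 9 replication genes, ORC5, ORC6, MCM5, POLA2, RPA1, RPA2, FEN1, TYMS and CCNE2, where 17.5% of all tested genes had that pattern. Lower values in 3 of 3 pairs were found for 1, POLD3, against 15.9% of all tested genes. These counts are a description with no test, and 9 of 43 is near the share of all tested genes.

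The origin recognition complex binds origins and starts the loading of MCM. All 6 of its genes had a mean above 0, against 51.3% of all tested genes. The median of the 6 was 0.24, with medians of 0.29, -0.13 and 0.85 in pairs 1, 2 and 3. Without pair 3 the median was 0.08. ORC5, an ATPase-fold subunit, had log2 values of 6.41, 6.62 and 6.39 on the wild type arrays of pairs 1, 2 and 3 and of 7.17, 6.95 and 7.18 on the deltaP arrays. All 3 deltaP values lay above all wild type values, and pair 2 had the smallest gap. Here and below, a lack of overlap only restates that the 3 pair differences have the same sign. The mean difference of 0.63 ± 0.25 (SD, n = 3 pairs), or 1.55-fold, was the largest of the 43. In limma its unadjusted p was 0.0197 and its adjusted p 0.375.

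ORC6, the smallest subunit of the complex, had 8.12, 8.07 and 7.77 in wild type and 8.32, 8.38 and 8.68 in deltaP cells. The groups did not overlap, and the gap was widest in pair 3. Its mean difference was 0.47 ± 0.38 (SD, n = 3 pairs; limma adjusted p = 0.513). A second ORC6 probe set had pair differences of -0.03, -0.16 and 0.77, so it was higher in pair 3 alone. ORC4, another ATPase subunit, had 9.71, 10.07 and 9.48 in wild type and 10.15, 9.79 and 10.39 in deltaP cells, and the groups overlapped because pair 2 went the other way. Its mean difference was 0.36 ± 0.60 (SD, n = 3 pairs).

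The remaining origin genes were smaller in their mean difference. ORC3 had the lowest mean of the complex, 0.05 ± 0.32 (SD, n = 3 pairs), from 8.96, 9.28 and 9.16 in wild type and 9.35, 9.04 and 9.15 in deltaP cells, and it was higher in pair 1 alone. ORC1, in mammals a subunit gene induced by E2F at the G1 to S transition, had pair differences of -0.26, -0.35 and 0.94. ORC2 had pair differences of 0.07, -0.02 and 0.31.

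The licensing factors and their controls did not share a direction. Their 4 tested genes had a median of 0.02, with 2 above and 2 below 0. By their brightest probe sets all 4 were lower in deltaP in pair 2 (median -0.44) and higher in pair 3 (median 0.50). Over all tested genes 53.9% were higher in pair 2 and 45.8% in pair 3. Without pair 3 the median of the 4 was -0.23. A dimmer CDT1 probe set over the filter had pair differences of -0.08, 0.30 and 0.39, so it was higher in pair 2.

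MCM10, which helps to fire loaded helicases, had 4.81, 5.21 and 4.27 in wild type and 5.07, 4.66 and 5.60 in deltaP cells. The groups overlapped, and its pair differences of 0.27, -0.55 and 1.33 spanned the widest interval of the set (-0.60 to 1.30). CDC7, the catalytic subunit of the kinase that phosphorylates MCM proteins, had 7.77, 7.86 and 7.58 in wild type and 7.44, 7.35 and 7.63 in deltaP cells. It was lower in pairs 1 and 2 and differed by 0.05 in pair 3, with a mean of -0.26 ± 0.28 (SD, n = 3 pairs; limma adjusted p = 0.693). CDT1, the loading factor, and GMNN, which encodes its inhibitor geminin, had similar pair patterns, with differences of -0.10, -0.38 and 0.65 for CDT1 and of -0.23, -0.20 and 0.36 for GMNN.

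The replicative helicase is the MCM ring with CDC45 and GINS. All 7 tested genes had a mean above 0 (median 0.24), against 51.3% of all tested genes. All 7 were higher in pair 3 (median 0.71), against 45.8% of all tested genes. The medians in pairs 1 and 2 were 0.06 and -0.05, and without pair 3 the median was -0.02.

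MCM5, a ring subunit, had 11.01, 11.05 and 10.75 in wild type and 11.15, 11.10 and 11.40 in deltaP cells. The groups did not overlap, but the gaps in pairs 1 and 2 were 0.14 and 0.06 against 0.65 in pair 3. The mean difference was 0.28 ± 0.32 (SD, n = 3 pairs; limma adjusted p = 0.594). MCM3 had 8.79, 9.07 and 8.14 in wild type and 8.84, 8.56 and 9.49 in deltaP cells. Its difference of 1.35 in pair 3 was the largest of the 43 genes in any pair, while pair 2 gave -0.51, so the sign of its mean (0.30) rested on pair 3. MCM2 and MCM6 had pair 3 differences of 0.71 and 0.81, and in pairs 1 and 2 they lay between -0.07 and 0.06. That held for the brightest MCM6 probe set only. In pairs 1 and 2 the dimmer ones over the filter had -0.39 and -0.15 in the one and -0.33 and 0.27 in the other.

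CDC45, which joins the ring at origin firing, had 0.10, -0.32 and 0.72. Like MCM2, MCM3 and MCM5 it was lowest in pair 2 and highest in pair 3, while MCM6 was lowest in pair 1. The GINS subunits had smaller pair 3 values. GINS3 had the lowest mean of this group, 0.09 ± 0.21 (SD, n = 3 pairs), from 9.24, 9.45 and 9.33 in wild type and 9.53, 9.32 and 9.45 in deltaP cells, and its highest difference was in pair 1. GINS1 had pair differences of -0.24, 0.07 and 0.46.

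**Figure D4:**
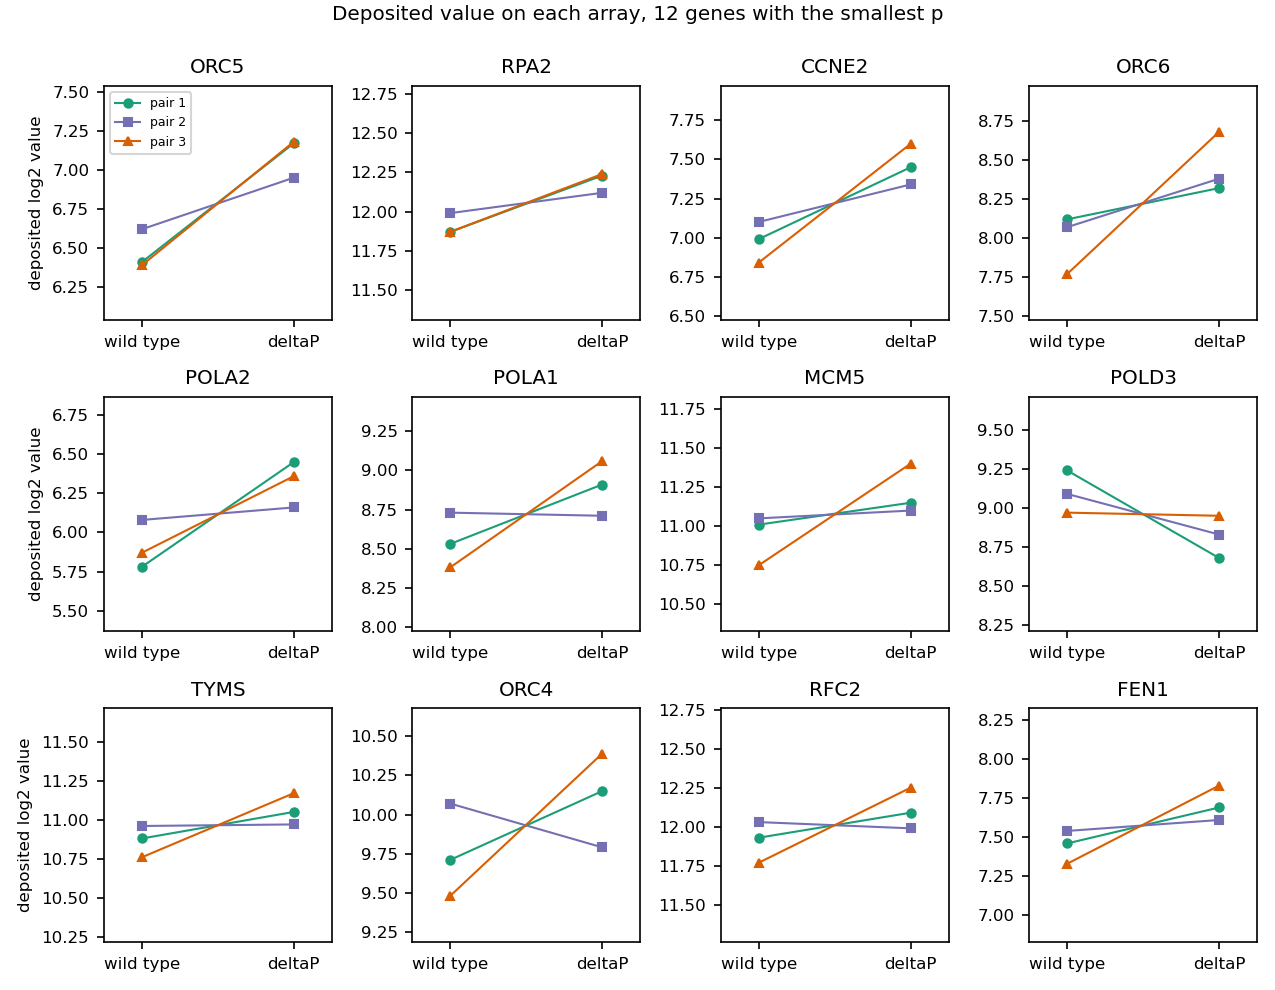
Deposited log2 value on the wild type and deltaP array of each pair (y axis, log2 units; each panel spans the same range of values) for the 12 replication genes with the smallest p. Lines join the arrays of a pair. The lines cross at the middle because the pair means are equal in the deposited values. ORC5, RPA2, CCNE2, ORC6, POLA2, MCM5, TYMS and FEN1 slope upwards in 3 of 3 pairs and POLD3 downwards.

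The polymerases copy the DNA and primase lays down the RNA primers. The 6 tested genes of this group had 4 means above 0 and 2 below, with a median of 0.23 and pair medians of 0.19, -0.03 and 0.51. POLA1 and POLA2, the catalytic and the B subunit of polymerase alpha, which starts each new strand with primase, were the highest of the group. POLA2 had 5.78, 6.08 and 5.87 in wild type and 6.45, 6.16 and 6.36 in deltaP cells, without overlap, and a mean difference of 0.41 ± 0.30 (SD, n = 3 pairs; limma adjusted p = 0.59). POLA1 had 8.53, 8.73 and 8.38 in wild type and 8.91, 8.71 and 9.06 in deltaP cells. Pair 2 gave -0.03, and the mean was 0.35 ± 0.36 (SD, n = 3 pairs). A second, dimmer POLA1 probe set had pair differences of 0.14, -0.46 and 1.60.

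POLD3, an accessory subunit of polymerase delta, the lagging strand enzyme, had the lowest mean of the group. It had 9.24, 9.09 and 8.97 in wild type and 8.68, 8.83 and 8.95 in deltaP cells, with a mean difference of -0.28 ± 0.27 (SD, n = 3 pairs; limma adjusted p = 0.622). The groups did not overlap, though the gap in pair 3 was 0.02 log2 units by this probe set, a pair difference of -0.02. The 2 other POLD3 probe sets over the filter were lower in every pair too, with differences of -0.21, -0.09 and -0.37 in the one and -0.43, -0.35 and -0.57 in the other. Polymerase epsilon, the leading strand enzyme, had means of 0.24 for POLE and 0.22 for its subunit gene POLE2. The brightest POLE probe set had pair differences of -0.04, 0.21 and 0.56. A dimmer one over the filter (mean log2 value of 4.03) had 0.96, 0.15 and 0.01, so its largest difference was in another pair. PRIM1, the catalytic primase subunit, had pair differences of 0.00, -0.03 and -0.06, the smallest spread of the 43 (SD of 0.03, n = 3 pairs).

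PCNA, the sliding clamp that tethers polymerases to DNA, had 12.86, 13.19 and 12.65 in wild type and 13.22, 12.89 and 13.43 in deltaP cells. The groups overlapped, since pair 2 gave -0.31 against 0.36 and 0.78 in pairs 1 and 3, and the mean was 0.28 ± 0.55 (SD, n = 3 pairs; limma adjusted p = 0.708). The loader subunits RFC1 to RFC5, which open and close the clamp, had means from -0.12 to 0.20. RFC2 was the highest of these with 11.93, 12.03 and 11.77 in wild type and 12.09, 11.99 and 12.25 in deltaP cells. A dimmer RFC2 probe set had pair differences of -0.01, -0.03 and -1.07, opposite to the brightest in pair 3, and the mean of both probe sets was -0.09. RFC3 was the lowest with 7.28, 7.56 and 7.33 in wild type and 7.38, 7.10 and 7.32 in deltaP cells, and it was higher in pair 1 alone. RFC4 and RFC5 had their highest difference in pair 1, at 0.32 and 0.27. For the clamp and loader together the median was 0.12 and the pair medians 0.21, -0.15 and 0.36.

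RPA, FEN1 and LIG1 handle the exposed and lagging strands. The 4 tested genes were all above 0 in pairs 2 and 3, where 53.9% and 45.8% of all tested genes were higher. The pair medians of the 4 were 0.13, 0.11 and 0.41. RPA2, a subunit of the complex that coats single-stranded DNA, had 11.87, 11.99 and 11.87 in wild type and 12.23, 12.12 and 12.24 in deltaP cells. The groups did not overlap, with gaps of 0.36, 0.13 and 0.38 in pairs 1, 2 and 3, the smallest in pair 2. The mean difference was 0.29 ± 0.14 (SD, n = 3 pairs), or 1.22-fold. In limma its unadjusted p was 0.0409 and its adjusted p 0.482. A second RPA2 probe set agreed in sign in every pair, with 0.43, 0.25 and 0.41.

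RPA1, the large subunit of the same complex, had pair differences of 0.03, 0.09 and 0.45. FEN1, the nuclease that trims Okazaki fragments, had 7.46, 7.54 and 7.33 in wild type and 7.69, 7.61 and 7.83 in deltaP cells, without overlap (mean 0.27 ± 0.22, SD, n = 3 pairs). LIG1, the ligase that seals them, was the dimmest of the 43, with 4.56, 4.19 and 4.30 in wild type and 4.05, 4.42 and 4.31 in deltaP cells. It was lower in pair 1 alone, and its mean was -0.09 ± 0.38 (SD, n = 3 pairs).

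Of the nucleotide supply genes, RRM2 and DUT were among the brightest of the set (mean log2 values of 13.31 and 12.18). TYMS had 10.96, while TK1 and RRM1, at 9.61 and 9.49, were near the median of the set (9.39). The median difference of the 5 genes was 0.11, with pair medians of 0.03, -0.29 and 0.50, and without pair 3 it was -0.13. RRM2, the small subunit of ribonucleotide reductase, had 13.35, 13.59 and 13.00 in wild type and 13.27, 13.03 and 13.63 in deltaP cells. Its pair differences of -0.08, -0.56 and 0.63 cancelled to a mean of 0.00 ± 0.60 (SD, n = 3 pairs). RRM1, the large subunit, had a like course of -0.06, -0.30 and 0.70. TYMS, the thymidylate synthase gene, was the highest of this group and did not overlap, with 10.88, 10.96 and 10.76 in wild type and 11.05, 10.97 and 11.17 in deltaP cells. Its gap in pair 2 was 0.01, and the mean difference was 0.20 ± 0.20 (SD, n = 3 pairs). DUT, which encodes the dUTPase that keeps uracil out of DNA, had a mean of 0.19, and the thymidine kinase gene TK1 had a mean of 0.04.

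The chromatin assembly factor subunits CHAF1A and CHAF1B, which place histones on new DNA at PCNA, were alike. CHAF1A had 8.51, 8.66 and 8.18 in wild type and 8.61, 8.46 and 8.94 in deltaP cells, and CHAF1B had 10.62, 10.80 and 10.45 in wild type and 10.72, 10.55 and 10.90 in deltaP cells. The groups overlapped for both genes, with pair 2 lower and pair 3 higher. Without pair 3 their means were -0.05 and -0.07.

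The G1 to S regulators differed from one another. CCNE2, which encodes cyclin E2, a partner of CDK2, had 6.99, 7.10 and 6.84 in wild type and 7.45, 7.34 and 7.60 in deltaP cells. The groups did not overlap, and the mean difference was 0.49 ± 0.26 (SD, n = 3 pairs), or 1.4-fold. In limma its unadjusted p was 0.0446 and its adjusted p 0.497. Its second probe set had differences of 0.29, 0.19 and 0.64.

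CCNE1, which encodes cyclin E1, was dim and had 5.10, 5.00 and 5.65 in wild type and 5.09, 5.19 and 4.54 in deltaP cells. It had the lowest mean of the 43 genes, -0.31 ± 0.70 (SD, n = 3 pairs; limma adjusted p = 0.782), all of it from pair 3, where it differed by -1.11. Without pair 3 its mean was 0.09. Its 3 other probe sets were below the filter. CDC25A, which encodes the phosphatase that activates CDK2, had pair differences of -0.26, -0.15 and 0.30.

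In 12 of the 43 genes more than 1 probe set was over the filter, which gave 15 second probe sets. Of these, 11 had a mean difference of the same sign as the brightest and 4 the opposite sign, and 12 of 15 were higher in pair 3. The 4 were 2 of RFC1, 1 of RFC2 and 1 of RRM1. The dimmer MCM6 probe sets had pair 3 differences of 0.82 and 0.66, close to the brightest, but -0.39 and -0.33 in pair 1. The second CDT1 probe set had 0.39 in pair 3 and, unlike the brightest, was higher in pair 2 (0.30).

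Of 80 further replication and G1/S genes listed beside the set, 64 were tested, with a median of 0.10. Of the 64, 45 were above 0 and 19 below, where 51.3% of all tested genes were above 0. The medians of the 64 in pairs 1, 2 and 3 were 0.00, -0.09 and 0.29. None of the 64 passed in limma over all genes, and at an unadjusted p under 0.05 there were 3 higher and 2 lower, against 3.89% and 6.04% of all tested genes.

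The inhibitor gene CDKN2A in mammals encodes ARF and INK4A, the latter named in the study's title. It had pair differences of 3.88, 2.04 and 2.37, the largest in pair 1 (limma adjusted p = 0.166). Which product its probe set reads, and any link to the replication genes, was not tested. E2F4, mostly a repressor of the E2F family, had differences of 0.37, 0.40 and 0.42 (limma adjusted p = 0.371). MCMBP, an MCM-binding protein, had 0.52, 0.10 and 0.38. MTHFD1, an enzyme of the folate cycle that feeds thymidylate synthesis, had -0.34, -1.50 and -0.42, and SKP2, which targets the CDK inhibitor p27 for breakdown, had -0.73, -0.41 and -0.10. E2F1, an activator of S phase genes, had -0.29, -0.28 and 0.11 and did not pass (limma adjusted p = 0.776).

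Genes of mitosis, listed for comparison, had the same order of pairs by their medians. All 22 with a probe set were tested, with medians of -0.10, -0.27 and 0.57 in pairs 1, 2 and 3. In pair 3, 21 of 22 were higher, against 45.8% of all tested genes. Both lists were measured on the same 6 arrays, so they are not separate observations of these cells. The mitosis genes with the largest mean differences were NUF2 (0.60), BUB1B (0.30), CENPF (0.28) and CDC20 (-0.26). CENPF was the 1 gene lower in pair 3, with pair differences of 0.57, 0.30 and -0.04. Of the mitosis genes 0 of 22 were higher in 3 of 3 pairs, against 17.5% of all tested genes.

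The tested genes outside these lists whose 3 pair differences lay nearest to the medians of the replication genes were CEP135, EBNA1BP2, RBBP4, GSPT2, DCAF13, PWP2, CYFIP1 and PSMA1. Their Euclidean distances over the 3 pairs ran from 0.0378 to 0.0575 log2 units. With 3 pairs, such likeness is a description.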

How the data were processed

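Total RNA of each culture was read on its own Affymetrix chicken array after biotin labelling, 6 arrays with 3 per group, per the labels' protocols. The deposited table holds log2 values for 38535 probe sets, 96 of them controls. The submitters' processing notes list Partek 6.4 and GCRMA; further steps are not given in the sources used here. GCRMA pulls dim probe sets towards a floor, so changes of dim genes can be distorted. Within each of the 3 pairs, the deviations of the arrays from their group's mean correlated at -1, so an additive replicate effect had been removed. The p-values rest on the spread of within-pair differences, which limma draws towards a trend with intensity over all tested genes. They hold no spread in level between replicate numbers, only that of the difference.

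Group and replicate came from the sample titles. Controls were left out. Symbols came from the platform annotation (27168 probe sets with 1 symbol), and genes were kept apart by Entrez identifier. The test was limma 3.58.1 under R 4.3.3 (lmFit, then eBayes with trend), with replicate number as a block, two-sided, adjusted by Benjamini-Hochberg over 7768 genes at 0.05; the script was tested on simulated data. The genes, the lists and the block were chosen with earlier results of these data known. Array values were printed for the 12 genes with the smallest p and the highest and lowest of each role; further genes were named at an unadjusted p under 0.05, with E2F1 and CDKN2A in any case, and 4 mitosis genes by size. Alternatives were no block, no filter, the mean of probe sets, median centring, no trend and each pair left out. A planned count of promoter motifs was not made.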

Additional observations from a re-analysis of the deposited data

How the results depend on the processing

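With the filter removed, the mean of probe sets, median centring or no intensity trend, the median of the replication genes stayed between 0.15 and 0.17 and 0 of them passed. With the mean of probe sets, medians fell from 0.12 to 0.01 for the clamp and loader and from 0.11 to 0.04 for nucleotide supply. They also fell from 0.24 to 0.18 for the helicase and to 0.23 for the origin recognition complex. Medians rose from 0.02 to 0.05 for licensing and from 0.23 to 0.26 for polymerases and primase. Another result came from the fit with no replicate block, which called 640 genes and 3 replication genes (10 at an unadjusted p under 0.05, and 2123 over all genes) and 2 further replication and G1/S genes, E2F4 and CDKN2A (11 unadjusted); it overstates the degrees of freedom. With no intensity trend the further genes had 3 at an unadjusted p under 0.05, in place of 5. With each pair left out in turn, the genes at an unadjusted p under 0.05 ran from 365 to 1023 over all genes, from 0 to 5 for the replication genes and from 2 to 9 for the further genes; such fits hold 2 pairs.

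The mean difference changed sign in some genes that had not passed. The mean of probe sets gave -0.09 for RFC2, and RRM2 stayed at 0.00 under median centring. With each pair left out in turn the mean ran from -0.32 to 0.28 for RRM2, -0.01 to 0.20 for GINS3, -0.25 to 0.12 for LIG1, -0.12 to 0.19 for ORC3, -0.23 to 0.04 for RFC3, -0.56 to 0.09 for CCNE1, -0.05 to 0.43 for CHAF1A, -0.07 to 0.27 for CHAF1B, -0.14 to 0.80 for MCM10 and -0.23 to 0.70 for MCM3. The last 5 changed sign without pair 3. This list holds only genes whose array values were printed. Others, among them ORC1, CDT1 and RRM1, had a mean above 0 but were lower in both other pairs. Of the 43 genes, 34 had a mean above 0 with all pairs, 35 without pair 1, 38 without pair 2 and 23 without pair 3. The mitosis median was -0.17 without pair 3 and 0.24 without pair 2. The cause was not tested. Signal over background is not given in the table, so how far dim genes such as LIG1 were compressed cannot be told.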
